A study of Mus musculus with 10 samples.

Results

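Transcript levels of 10 genes of retinol (vitamin A) uptake and metabolism, of 35275 genes measured, were followed in jejunal epithelial cells of 10 mice. The genes were picked by name and were found by their symbols: Rbp2, Lrat, Rdh7, Adh1, Dhrs3, Aldh1a1, Retsat, Isx, Rara and Rarb. All mice were adult C57BL/6 males by their labels and carried VillinCreERT2 and MYO5Bflox/flox, in which a Cre recombinase that tamoxifen activates is driven by the villin promoter and so acts in intestinal epithelium. The 3 control mice (numbered 2, 4 and 5) received corn oil and kept Myo5b, the gene of the motor protein myosin Vb that carries membrane proteins to the apical surface. The 4 MYO5B-knockout mice (3, 5, 6 and 7) received 2 mg of tamoxifen and a vehicle. Another 3 mice (1, 4 and 5) received 2 mg of tamoxifen and lysophosphatidic acid (LPA), a bioactive phospholipid, at 3 mg/kg by intraperitoneal injection, although the label of LPA-treated mouse 1 names both the vehicle and LPA. Cells were taken on day 4. No control mouse was given tamoxifen, so that loss of MYO5B and tamoxifen itself cannot be told apart.

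Enterocytes take up retinol from the lumen and cleave carotenoids to retinal. RBP2 holds retinol and retinal inside the cell and hands them to enzymes, and LRAT esterifies retinol so that retinyl esters can leave in chylomicrons. Alcohol and retinol dehydrogenases oxidize retinol to retinal, DHRS3 reduces retinal back to retinol, and ALDH1A1 oxidizes retinal irreversibly to retinoic acid. Retinoic acid binds the nuclear receptors RARA and RARB, and in the intestine it induces ISX, a homeodomain repressor of the genes for carotenoid uptake and cleavage. The jejunum is a main site of dietary vitamin A absorption.

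Levels are in FPKM, which divides the fragments of a gene by its length and by the total on genes in that library, and libraries had 10949420 to 24470409 reads on genes. Floors set by a count of 0 cover counting error only. Myo5b lay between 16.5 and 32.0 FPKM in control mice, between 10.5 and 13.6 FPKM in MYO5B-knockout mice and between 10.3 and 11.7 FPKM in LPA-treated mice, and the knockout groups did not overlap with control (log2 fold change -0.96, standard error 0.28, limma's adjusted p = 0.115 for MYO5B-knockout against control mice). In control mouse 2 only 12242 genes were detected, and in MYO5B-knockout mouse 3 only 12601, against 17309 to 18267 in the other 8 libraries. Mitochondrial genes took 17.4% and 18.0% of the reads of this pair, against 1.98% to 3.498% elsewhere. Both libraries stand apart, and values without them ("without the 2 libraries") are given where they matter. Xist was at 8.41 FPKM in MYO5B-knockout mouse 3 and at 15.1 FPKM in LPA-treated mouse 1, neither of which had a read on 4 Y-linked genes, and this goes against their labelled sex. All 10 epithelial markers had reads in every library, with summed levels of 31681 to 41059 FPKM in control, 21098 to 31039 FPKM in MYO5B-knockout and 27037 to 48849 FPKM in LPA-treated mice. These sums rest mostly on a few abundant genes, such as Apoa1, with means of 12460 FPKM in control and 6054 FPKM in MYO5B-knockout mice. Between these groups 5 of the 10 markers were higher and 5 lower, with a median log2 fold change of -0.01. The groups did not overlap for 3 of the higher markers and 1 of the lower, beside 17.2% of all genes in either direction. Bulk RNA cannot tell fewer cells of a type from less RNA per cell.

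**Figure D1:**
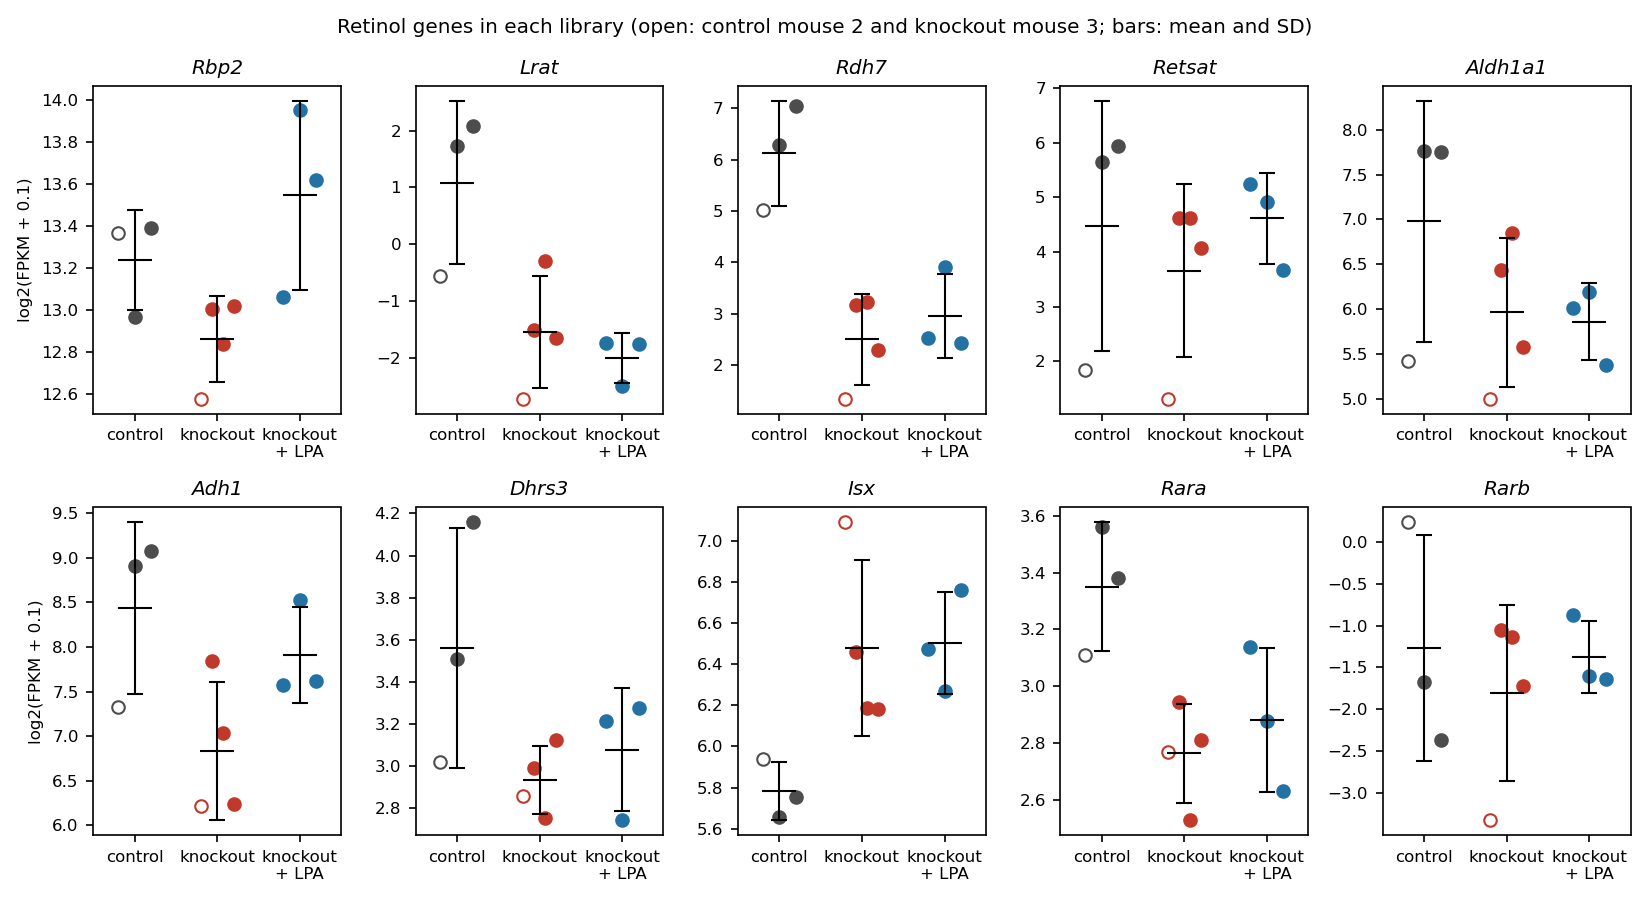
Level of each of the 10 genes in every library, as log2(FPKM + 0.1), with 1 point per mouse, the group mean and its SD as bars, and open points for control mouse 2 and MYO5B-knockout mouse 3. Rdh7 lies between 32.5 and 133 FPKM in control mice and between 2.45 and 14.9 FPKM in the 7 knockout libraries, whereas Rbp2 lies between 6116 and 15835 FPKM throughout.

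In control mice the mean levels ran from Rbp2 through Adh1, Aldh1a1, Rdh7, Isx, Retsat, Dhrs3, Rara and Lrat down to Rarb, on the FPKM scale, which is per gene length. Neighbours in that order overlapped between mice except for Rbp2 with Adh1 and Rara with Lrat. The spread among the 3 control mice differed from gene to gene. The highest library exceeded the lowest by 17.7-fold for Retsat, 11.4-fold for Rarb, 7.24-fold for Lrat and 5.05-fold for Aldh1a1, but by 1.21-fold for Isx, 1.34-fold for Rbp2 and 1.37-fold for Rara. Control mouse 2, with few detected genes, was the lowest control for Lrat, Rdh7, Retsat, Aldh1a1, Adh1, Dhrs3 and Rara and the highest for Isx and Rarb.

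Between MYO5B-knockout and control mice, 1 of the 10 genes passed limma's adjusted p of 0.05, and it was lower: Rdh7, 12.2-fold down. Of all 15729 genes tested, 2.01% were called in either direction and 0.884% were called lower. In 9 of the 10 genes the log2 fold change was below 0, with a median of -0.72, while the median of all genes was 0.29. Groups did not overlap for Rdh7 and Rara, which were lower, and for Isx, which was higher, and such separation occurred in 17.2% of all genes, with the knockout group lower in 6.2% of all genes. Median-ratio scaling brought that shift of all genes down to 0.04. With control mouse 2 and MYO5B-knockout mouse 3 left out, 2 of the 10 genes were called, Rdh7 and Lrat, and 4.95% of all genes. On the reads behind the FPKM, edgeR called 3 of the genes (Lrat, Rdh7 and Adh1) beside 2.82% of all genes, and DESeq2 called those 3 with Aldh1a1, Dhrs3 and Rara, 6 in all, beside 11.8% of all genes.

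**Figure D2:**
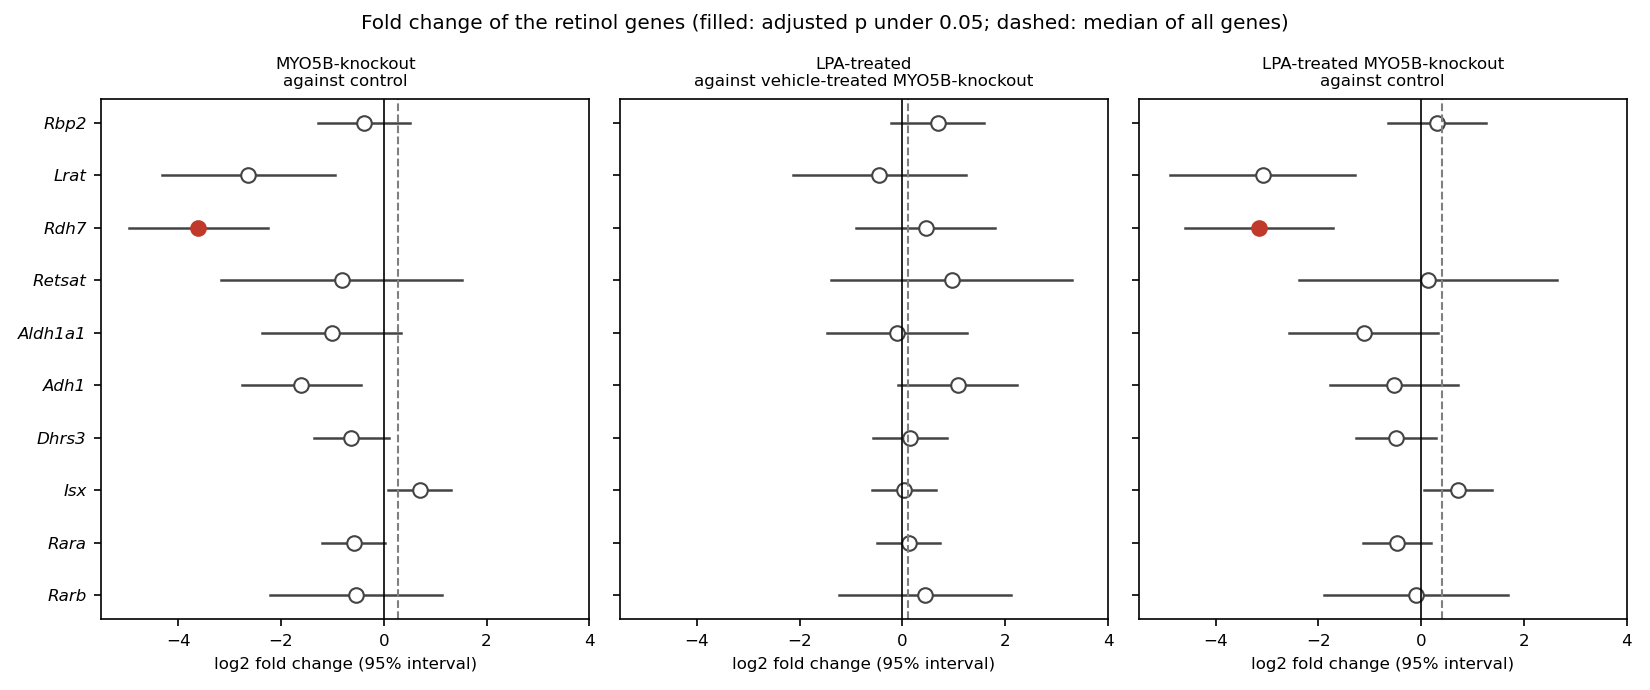
Log2 fold change of the 10 genes in the 3 comparisons, on the log2(FPKM + 0.1) scale, with 95% confidence intervals, filled points where limma's adjusted p was under 0.05, and a dashed line at the median of all genes tested. Only Rdh7 is filled, at -3.61 in MYO5B-knockout and -3.16 in LPA-treated MYO5B-knockout mice against control, and no point is filled between LPA and vehicle.

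Rbp2 (ENSMUSG00000032454, chr9:98486115-98509781, plus strand, GRCm38) encodes the retinol-binding protein of absorptive enterocytes. The controls (mice 2, 4 and 5) held 10549, 7997 and 10722 FPKM. The MYO5B-knockout mice (3, 5, 6 and 7) held 6116, 8228, 7326 and 8310 FPKM. The LPA-treated mice (1, 4 and 5) held 8546, 15835 and 12589 FPKM. Rbp2 was thus among the most abundant transcripts in every library, ranked 2nd to 14th of all genes and taking between 0.491% and 1.27% of the reads. The MYO5B-knockout group overlapped with control, with 2 of 4 mice below every control (log2 fold change -0.38, 95% confidence interval -1.28 to 0.52, limma's adjusted p = 0.667). All 3 LPA-treated mice lay above all 4 vehicle-treated MYO5B-knockout mice, a 1.61-fold difference (log2 fold change 0.68, interval -0.21 to 1.58) with limma's adjusted p = 1. Groups did not overlap for 4.16% of all genes in that comparison. Against control, the LPA-treated mice gave 0.30 (interval -0.65 to 1.26).

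Lrat (ENSMUSG00000028003, chr3:82892579-82903973, minus strand), the main retinol-esterifying enzyme, was rare. The controls held 0.575, 3.22 and 4.16 FPKM, from 34, 265 and 390 reads. In the order of their numbers, the MYO5B-knockout mice held 0.0512, 0.249, 0.713 and 0.215 FPKM, from 3, 23, 78 and 26 reads. With LPA, mice 1, 4 and 5 held 0.199, 0.0756 and 0.196 FPKM, from 26, 7 and 14 reads. MYO5B-knockout mouse 6 exceeded control mouse 2, and the other 3 MYO5B-knockout mice lay below every control. The 6.22-fold lower fitted level in MYO5B-knockout mice (log2 fold change -2.64, standard error 0.76) missed the threshold, with limma's adjusted p = 0.106. Without control mouse 2 and MYO5B-knockout mouse 3 it was -3.07 and passed (limma's adjusted p = 0.0239). It passed on reads as well, at -3.31 with edgeR (adjusted p = 0.0459) and -3.36 with DESeq2 (adjusted p = 0.000128). All 3 LPA-treated mice were below every control mouse (log2 fold change -3.09, standard error 0.82, limma's adjusted p = 0.0844). Their difference was -3.91 when the 2 libraries were left out (limma's adjusted p = 0.00778). At 3 to 78 reads per knockout library, a difference between LPA and vehicle was not detectable (-0.45, interval -2.14 to 1.24).

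Rdh7 (ENSMUSG00000040134, chr10:127884028-127888817, minus strand) encodes a short-chain dehydrogenase that oxidizes retinol and also acts on steroids. Controls 2, 4 and 5 gave 32.5, 77.6 and 133 FPKM, from 602, 2005 and 3896 reads. MYO5B-knockout mice 3, 5, 6 and 7 gave 2.45, 8.92, 9.27 and 4.78 FPKM, from 45 to 318 reads. Mice 1, 4 and 5, which received LPA, gave 5.70, 14.9 and 5.32 FPKM, from 119 to 432 reads. No knockout library of either treatment reached the lowest control. Rdh7 fell with a log2 fold change of -3.61 in MYO5B-knockout mice (standard error 0.61, interval -4.96 to -2.26, limma's adjusted p = 0.020). Leaving out the 2 libraries gave -3.77 (limma's adjusted p = 0.0150). The call held in 19 of 22 other settings and was lost without control mouse 4 (limma's adjusted p = 0.0765), without control mouse 5 (0.105) and with only the 2 groups in the model (0.0706). In LPA-treated mice it was 8.94-fold below control (log2 fold change -3.16, standard error 0.65, limma's adjusted p = 0.0366). That call was less stable and was lost without control mouse 4 or 5, MYO5B-knockout mouse 6 or 7, or LPA-treated mouse 1, 4 or 5, at adjusted p-values of 0.0549 to 0.157. It was also lost without a filter, without MYO5B-knockout mouse 3 and LPA-treated mouse 1 together, and with only the 2 groups. Of the 50-base stretches of its transcripts, 12.9% also occur in transcripts of other genes, most often Rdh18-ps (10.9%), so reads could be shared.

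As the gene called in the main comparison, Rdh7 is shown with the bases directly upstream of its deposited start, chr10:127888818-127888983, minus strand, from the RefSeq promoter table (GRCm38.p6), read 5′ to 3′ in the direction of the gene.
Rdh7 upstream: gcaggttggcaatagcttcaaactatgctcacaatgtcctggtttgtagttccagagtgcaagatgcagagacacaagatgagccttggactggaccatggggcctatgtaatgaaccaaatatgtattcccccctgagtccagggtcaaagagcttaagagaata
A second RefSeq start gave a window further upstream, chr10:127889198-127889497, minus strand, in which capitals mark 3 overlapping matches of the letters TTTATN, a motif of CDX factors, on the strand opposite to the gene.
Rdh7 second window: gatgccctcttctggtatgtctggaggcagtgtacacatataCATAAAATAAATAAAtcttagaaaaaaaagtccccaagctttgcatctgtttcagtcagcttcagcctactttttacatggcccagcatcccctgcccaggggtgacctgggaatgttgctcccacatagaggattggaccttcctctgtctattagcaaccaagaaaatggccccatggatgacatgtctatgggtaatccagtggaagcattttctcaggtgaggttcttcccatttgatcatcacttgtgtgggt
The letters TTTATN occur in 39.9% of the 32851 promoter windows of 300 bases. Both strands of both windows were also searched for AGATAA (in 11.2% of windows), CAAAGTCCA (0.475%), and for 2 copies of AGGTCA 1, 2 or 5 bases apart (0.0396%, 0.00913% and 0.00913%) or of GTTCA at the same spacings (0.07%, 0.0548% and 0.0396%), the letters of retinoic acid receptor half-sites. None of these was in either window, and none of the 9 motifs was in the window nearest to the deposited start. This says only that these motifs, with half-site copies paired at these gaps, are not there. Single copies were not searched for. On the strand opposite to the gene, GTTCA occurs in the first sequence printed and AGGTCA in the second. GTTCA is 1 letter shorter than AGGTCA, so at the same gaps its copies start closer together. Longer gaps between copies of GTTCA were not searched, and the absence does not cover them.

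Adh1 (ENSMUSG00000074207, chr3:138260991-138290698, plus strand) encodes an alcohol dehydrogenase of wide substrate range that also clears excess retinol. It was abundant, with 161, 479 and 538 FPKM in controls 2, 4 and 5. Among MYO5B-knockout mice, numbers 3, 5, 6 and 7 had 74.0, 229, 131 and 75.5 FPKM. Under LPA, mice 1, 4 and 5 had 190.2, 369 and 196 FPKM. MYO5B-knockout mouse 5 lay above control mouse 2, and the other 3 MYO5B-knockout mice below every control. The fitted level was 3.04-fold lower in MYO5B-knockout mice (log2 fold change -1.60, standard error 0.53) and did not pass limma's test (adjusted p = 0.147). After median-ratio scaling the value was -1.89 and passed (limma's adjusted p = 0.0393), as it did with edgeR (adjusted p = 0.0459) and DESeq2 (adjusted p = 0.000794). Without the 2 libraries it was -1.95 with limma's adjusted p = 0.0626. Levels in LPA-treated mice were 2.10-fold those of vehicle-treated MYO5B-knockout mice (log2 fold change 1.07, interval -0.09 to 2.24, limma's adjusted p = 1). Against control they gave -0.53 (interval -1.77 to 0.72).

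Dhrs3 (ENSMUSG00000066026, chr4:144892827-144928209, plus strand) encodes the retinal reductase that limits retinoic acid formation. Controls 2, 4 and 5 had 8.02, 11.3 and 17.7 FPKM. The MYO5B-knockout mice, in the order of their numbers, had 7.15, 7.87, 6.66 and 8.63 FPKM. Mice 1, 4 and 5 on LPA had 9.18, 6.60 and 9.60 FPKM. The knockout libraries of both treatments reached no further than the low end of the control range, with 3 of 4 MYO5B-knockout mice below every control. The difference between MYO5B-knockout and control mice, -0.63 (interval -1.35 to 0.10), did not pass (limma's adjusted p = 0.353), although DESeq2 called it at -0.93 (adjusted p = 0.0348). LPA-treated mice differed from vehicle by 0.15 (interval -0.58 to 0.87) and from control by -0.48 (interval -1.26 to 0.29).

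Aldh1a1 (ENSMUSG00000053279, chr19:20601961-20643462, plus strand), which makes retinoic acid from retinal, reached 42.9, 217 and 215 FPKM in controls 2, 4 and 5. MYO5B-knockout mice 3, 5, 6 and 7 reached 31.9, 86.2, 115 and 47.8 FPKM. Those given LPA, mice 1, 4 and 5, reached 64.6, 72.8 and 41.4 FPKM. Control mouse 2 fell among the knockout libraries, and the other 2 control mice lay above all 7 of them. The difference of -1.01 between MYO5B-knockout and control mice (interval -2.37 to 0.34) did not pass (limma's adjusted p = 0.428). Without control mouse 2 and MYO5B-knockout mouse 3 it was -1.47 with limma's adjusted p = 0.0730. In LPA-treated mice the difference from control was -1.12 (limma's adjusted p = 0.422). Leaving out the 2 libraries made it -1.89, which passed (limma's adjusted p = 0.0294). Between LPA and vehicle it was -0.11 (interval -1.46 to 1.25). Transcripts of Aldh1a1 in GENCODE M21 share 3.06% of their 50-base stretches with the neighbouring paralog Aldh1a7. In that annotation Aldh1a1 starts at 20492715, outside the deposited gene, so the share may differ for the reads counted here.

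Retsat (ENSMUSG00000056666, chr6:72598475-72608425, plus strand) encodes retinol saturase, which reduces retinol to a dihydroretinol. It varied more within groups than between them, with 3.47, 49.95 and 61.6 FPKM in controls 2, 4 and 5. MYO5B-knockout mice 3, 5, 6 and 7 had 2.38, 24.4, 24.6 and 16.7 FPKM. After LPA, mice 1, 4 and 5 had 38.0, 30.1 and 12.6 FPKM. The lowest control and the lowest MYO5B-knockout library were those with few detected genes, and the other 2 controls exceeded every knockout library. With all libraries the log2 fold change of MYO5B-knockout against control mice was -0.82 (interval -3.17 to 1.53, limma's adjusted p = 0.732), and without those 2 it was -1.36 (limma's adjusted p = 0.115). The LPA-treated mice gave 0.14 against control (interval -2.37 to 2.65), a direction that turned to -1.18 without the 2 libraries (limma's adjusted p = 0.141). They gave 0.96 against vehicle (interval -1.39 to 3.31), which turned to -0.14 without MYO5B-knockout mouse 3 and LPA-treated mouse 1. Retsat shares 14.1% of its 50-base stretches with the transcript Gm45053.

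Isx (ENSMUSG00000031621, chr8:74873173-74893506, plus strand), the intestine-specific homeobox repressor, was the only one of the 10 genes with a higher fitted level in MYO5B-knockout than in control mice. Controls 2, 4 and 5 held 61.2, 50.4 and 53.9 FPKM. The MYO5B-knockout mice held, in the order of their numbers, 136, 87.9, 72.7 and 72.5 FPKM. The mice given LPA held 88.8, 77.1 and 108 FPKM. Every knockout library was above every control library. The 1.62-fold difference in MYO5B-knockout mice (log2 fold change 0.70, standard error 0.28, unadjusted p = 0.0316) did not pass over all genes (limma's adjusted p = 0.234), and relative to the median of all genes it was 0.41. In LPA-treated mice it was 0.72 (standard error 0.30, limma's adjusted p = 0.268). Leaving out the 2 libraries gave 0.80, which passed (limma's adjusted p = 0.0470). LPA-treated and vehicle-treated MYO5B-knockout mice differed by 0.02 (interval -0.60 to 0.64). The genes that ISX is known to repress, Scarb1 and Bco1, are in the list of carotenoid uptake and cleavage described below, in which no gene was called.

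Rara (ENSMUSG00000037992, chr11:98927818-98974942, plus strand), the broadly expressed retinoic acid receptor, measured 8.54, 11.7 and 10.3 FPKM in controls 2, 4 and 5. MYO5B-knockout mice 3, 5, 6 and 7 measured 6.72, 7.59, 5.67 and 6.92 FPKM. The LPA group, mice 1, 4 and 5, measured 8.71, 7.24 and 6.10 FPKM. All 4 MYO5B-knockout mice were below every control, and 2 of 3 LPA-treated mice were. The difference in MYO5B-knockout mice was small, -0.59 (interval -1.21 to 0.03, limma's adjusted p = 0.309), and DESeq2 called it at -0.86 (adjusted p = 0.0300). It was -0.47 in LPA-treated mice against control (limma's adjusted p = 0.464) and 0.12 against vehicle (interval -0.50 to 0.74).

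Rarb (ENSMUSG00000017491, chr14:16430842-16575472, minus strand), a receptor gene that retinoic acid itself induces in many tissues, was at the limit of detection. Controls 2, 4 and 5 had 1.07, 0.214 and 0.0941 FPKM, from 36, 10 and 5 reads. MYO5B-knockout mice 5, 6 and 7 had 0.382, 0.355 and 0.205 FPKM, and mouse 3 had 0 reads, which allows a level of up to 0.0903 FPKM (3 reads). The LPA group had 0.444, 0.229 and 0.223 FPKM. The groups overlapped, and the direction between MYO5B-knockout and control mice turned from -0.54 (interval -2.21 to 1.13) to 0.72 when the 2 libraries were left out, so no difference was detectable at this depth. Rarb transcripts of GENCODE M21 share 34.1% of their 50-base stretches with other genes, mostly Top2b. In that annotation Rarb extends to 16819156, beyond the deposited gene, so the share may differ for the reads counted here.

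**Figure D3:**
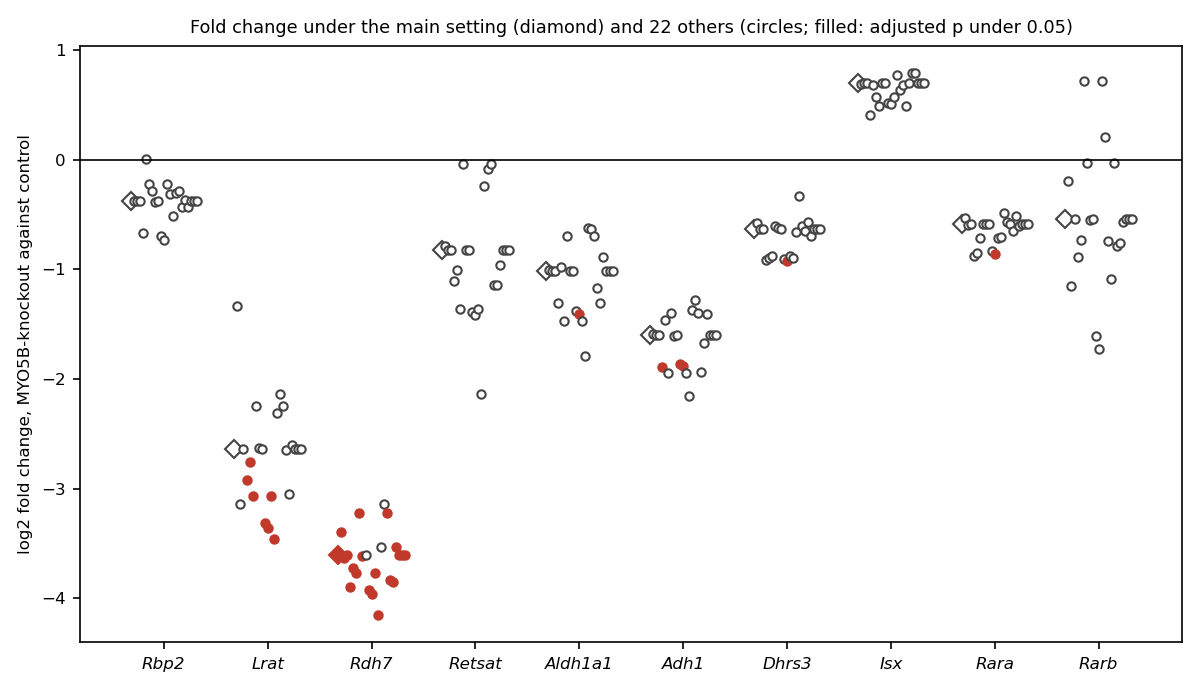
Log2 fold change of the 10 genes between MYO5B-knockout and control mice, with a diamond for the main fit and circles for 22 other settings, filled where the adjusted p was under 0.05. Rdh7 stays between -4.16 and -3.14 and is filled in 19 of the 22, Lrat is filled in 7, and only the circles of Rarb and Rbp2 reach past 0 on both sides.

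A further 52 genes of retinoid handling in 8 lists, ordered by role, showed how far the pattern extended. Of these, 12 averaged under 0.1 FPKM and were not tested, each with at most 46 reads over all libraries, among them all 3 Cyp26 genes of retinoic acid clearance, Stra6, Crabp1, Crabp2 and Aldh1a2. Of the 40 tested, 2 were called between MYO5B-knockout and control mice, 1 higher and 1 lower, beside 2.01% of all genes, and 16 were higher and 24 lower with a median of -0.18. Both called genes, Akr1b8 and Rdh16f2, were among the 16 tested of 18 oxidoreductases. No gene was called among 5 of binding and transport, 4 of carotenoid uptake and cleavage and 5 of retinyl ester hydrolysis and formation. Nor was any called among 2 listed under retinal to retinoic acid (Aldh1a3 and Aldh1a7), 4 receptors and 4 retinoic acid responsive genes. The 4 responsive genes tested had a median log2 fold change of 0.44, beside 0.29 for all genes, of which 9971 lay above 0. Tgm2 among them was at 0.01, and Rarres1 and Rarres2 rested on 15 and 7 reads over the MYO5B-knockout mice and on 1 read each over the control mice. The 4 carotenoid genes had a median of -0.75, with Cd36, a fatty acid and carotenoid transporter, at -1.95, Bco2 at -1.12, and the ISX targets Scarb1 at -0.37 and Bco1 at -0.05. Without control mouse 2 and MYO5B-knockout mouse 3, 8 of the 40 were called, 2 higher and 6 lower, beside 4.95% of all genes.

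**Figure D4:**
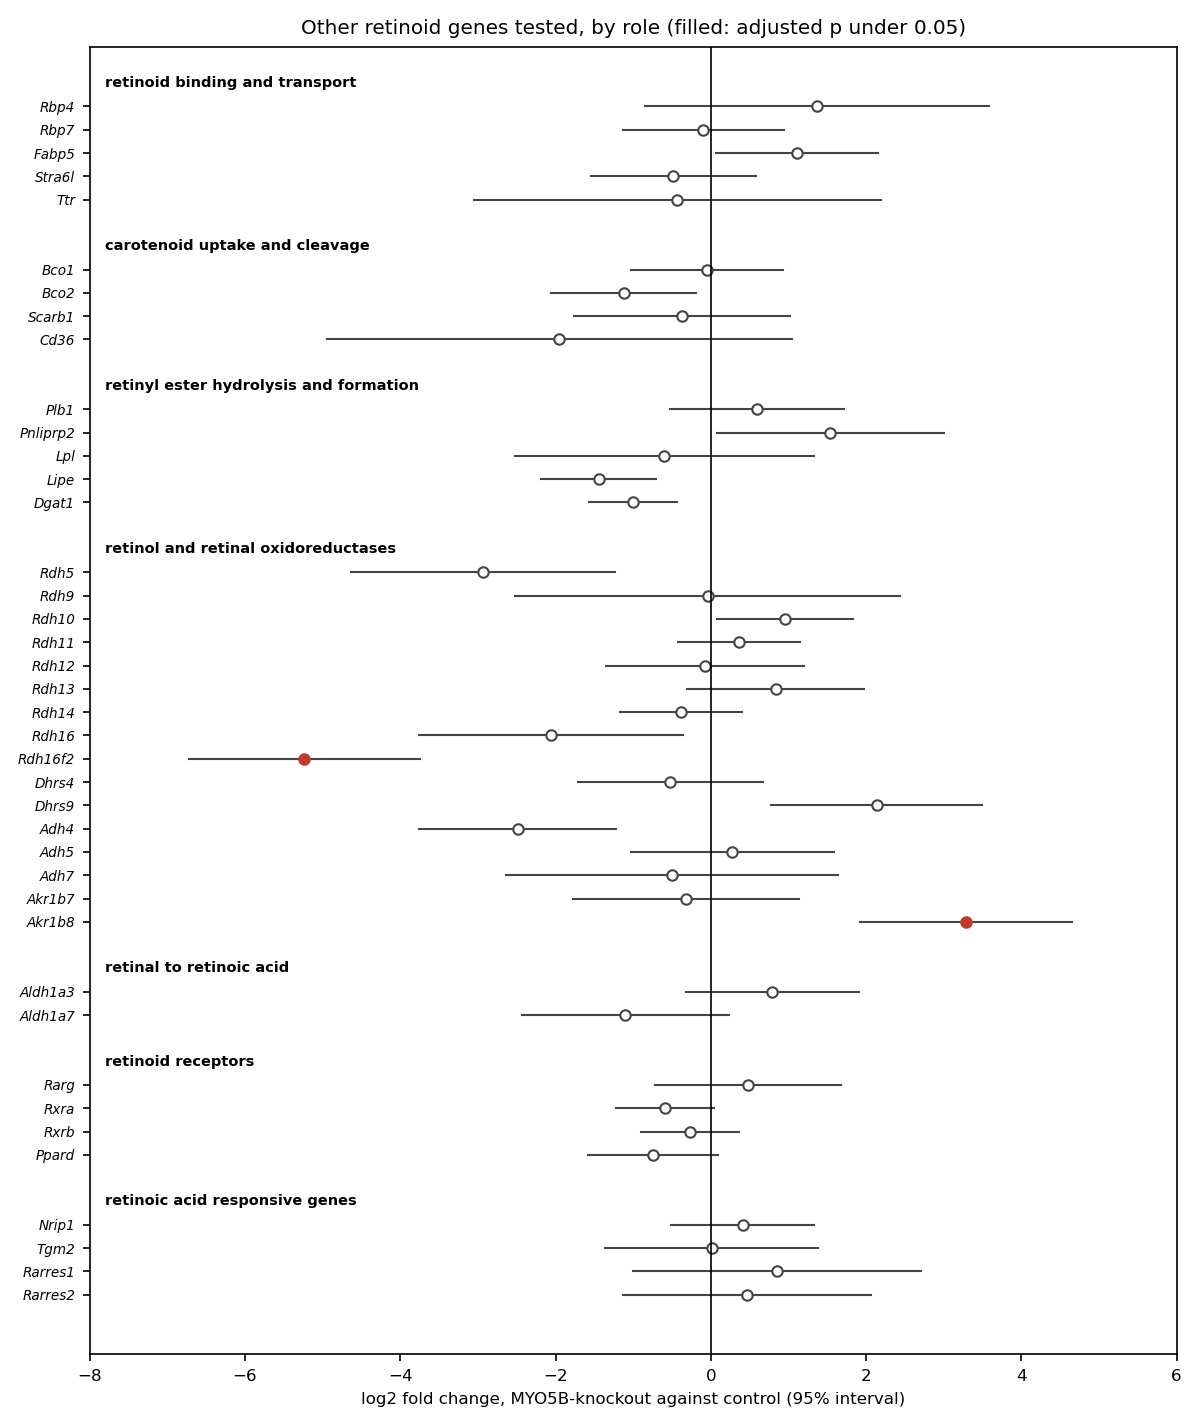
Log2 fold change with 95% confidence interval of the 40 other retinoid genes tested, MYO5B-knockout against control mice, grouped by role, with filled points where limma's adjusted p was under 0.05. The filled points are Rdh16f2 at -5.24 and Akr1b8 at 3.29, both among the oxidoreductases.

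Rdh16f2, a short-chain dehydrogenase of the same family as Rdh7, was at 10.1, 4.83 and 10.0 FPKM in controls 2, 4 and 5. It had 0 reads in MYO5B-knockout mouse 3, which allows up to 0.217 FPKM, and 0.0458, 0.232 and 0.315 FPKM in mice 5, 6 and 7. The LPA group had 0.0646, 0.457 and 0.297 FPKM. Every knockout library was thus far below every control, and the log2 fold change was -5.24 in MYO5B-knockout mice (standard error 0.67, limma's adjusted p = 0.00548) and -4.59 in LPA-treated mice (limma's adjusted p = 0.0114). The first call held in all 22 other settings, and the second was lost without control mouse 5 (limma's adjusted p = 0.0641) or LPA-treated mouse 5 (0.0557) and with a pseudocount of 0.01 (0.0871). Akr1b8, an aldo-keto reductase that can reduce retinal, moved in the opposite direction. Controls 2, 4 and 5 held 2.33, 14.3 and 7.36 FPKM, and levels were between 25.0 and 96.7 FPKM in MYO5B-knockout mice and between 55.7 and 96.9 FPKM in LPA-treated mice. It rose 9.75-fold in MYO5B-knockout mice (log2 fold change 3.29, standard error 0.62, limma's adjusted p = 0.0283). In LPA-treated mice it rose by 3.48 on the log2 scale (limma's adjusted p = 0.0256). Its call in MYO5B-knockout mice was lost without control mouse 2 or 5, MYO5B-knockout mouse 5, 6 or 7, or any 1 LPA-treated mouse (limma's adjusted p = 0.0510 to 0.112). With only the 2 groups it was lost too (0.0994). The call of Akr1b8 in LPA-treated mice was lost without control mouse 5 or any 1 LPA-treated mouse (0.0760 to 0.102). It was also lost without MYO5B-knockout mouse 3 and LPA-treated mouse 1 (0.0565) and with only the 2 groups (0.0767).

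Rdh5, a retinol dehydrogenase that prefers cis-retinols, was between 2.88 and 4.13 FPKM in control mice and at most 0.810 FPKM in MYO5B-knockout mice (log2 fold change -2.94, limma's adjusted p = 0.0771). Reads of Rdh5 may be shared with Bloc1s1, with which it has 20.4% of its 50-base stretches in common. Adh4, an alcohol dehydrogenase active on retinol, had 4.48, 20.2 and 19.5 FPKM in controls and between 1.32 and 3.24 FPKM in MYO5B-knockout mice (-2.49, limma's adjusted p = 0.0565). For both genes the groups did not overlap and the test was not passed with all libraries, while without the 2 libraries Rdh5 gave -2.14 (limma's adjusted p = 0.0417) and Adh4 -2.99 (0.0113). Dhrs9, a dehydrogenase that can oxidize retinol, was between 0.121 and 0.529 FPKM in control mice, between 0.619 and 3.08 FPKM in MYO5B-knockout mice (2.14, limma's adjusted p = 0.105) and between 1.84 and 4.13 FPKM in LPA-treated mice. Its rise in LPA-treated mice against control passed (log2 fold change 3.06, limma's adjusted p = 0.0437), but not without control mouse 4 or 5, MYO5B-knockout mouse 6 or 7, or any 1 LPA-treated mouse (limma's adjusted p = 0.0719 to 0.152), nor with edgeR (adjusted p = 0.0738). It also did not pass with a pseudocount of 0.01 (limma's adjusted p = 0.0525), without a filter (0.0744) or with only the 2 groups (0.0813). Without MYO5B-knockout mouse 3 and LPA-treated mouse 1 it did not pass either (limma's adjusted p = 0.0699).

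Rdh7 and Rdh16f2 lie in a run of 6 listed dehydrogenase genes, chr10:127759721-127888817 (129.1 kb). Relative to the start of Rdh7 on the chromosome, Rdh16f2 begins at -22.3 kb, Rdh16 at -87.7 kb and Rdh9 at -112.4 kb. Rdh16 had a mean of 1.74 FPKM in control and 0.440 FPKM in MYO5B-knockout mice. Its log2 fold change of -2.06 (interval -3.77 to -0.36) did not pass (limma's adjusted p = 0.199). Rdh9 gave -0.04 (interval -2.52 to 2.43). Rdh1 had 20 reads over all libraries and Rdh19 had 0, and neither was tested. Transcripts of Rdh16f2 share 10.0% of their 50-base stretches with other genes, most of them with Rdh9.

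**Figure D5:**
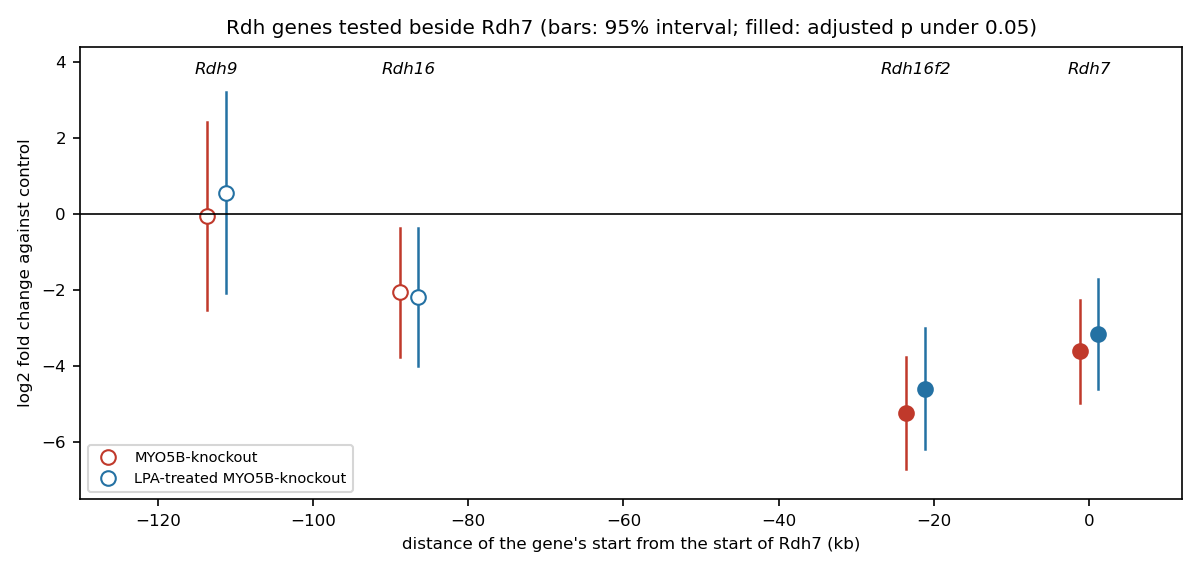
Log2 fold change with 95% confidence interval of the 4 tested dehydrogenase genes of the chromosome 10 run against their distance in kb from the start of Rdh7, for MYO5B-knockout and LPA-treated MYO5B-knockout mice against control. Rdh7 and Rdh16f2 lie at -3.61 and -5.24 in MYO5B-knockout mice, while Rdh9 lies at -0.04.

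LPA was given to ask whether it alters the knockout epithelium. Between LPA-treated and vehicle-treated MYO5B-knockout mice none of the 10 genes passed limma's test, and 0% of all genes did. At an unadjusted p under 0.05 the counts were 0 of the 10 genes and 459 of all genes, edgeR called 0 genes in all, and DESeq2 called 6, none of them among the 10. The log2 fold change was above 0 in 8 of the 10 genes, with a median of 0.29 beside 0.11 for all genes. Intervals were wide, and for Rdh7, the gene that fell, the difference was 0.45 (interval -0.90 to 1.80). None of the other 40 retinoid genes was called either. By size the list was led by Lpl, which encodes lipoprotein lipase, with 0.179, 2.22 and 2.88 FPKM under LPA and between 0.107 and 0.366 FPKM in MYO5B-knockout mice (log2 fold change 2.09, limma's adjusted p = 1, and 3.06 with adjusted p = 0.0420 without control mouse 2, MYO5B-knockout mouse 3 and LPA-treated mouse 1). Stromal and endothelial markers were also highest in LPA-treated mice 4 and 5, where the 10 genes summed to 7.37 and 8.42 FPKM, against 1.45 FPKM in LPA-treated mouse 1 and 0.421 to 3.10 FPKM in MYO5B-knockout mice. Of the 8 tested, 7 had values above 0 (median 1.33, beside 0.11 for all genes) and none was called. Among 9 leukocyte markers tested, 6 were higher and 3 lower under LPA than under vehicle (median 0.64), and none was called. Groups did not overlap for 4 of these 9, all higher under LPA, beside 4.16% of all genes. The part of these markers in the value of Lpl was not tested. Next by size came Rarres2, the chemerin gene, with 1, 7 and 5 reads in LPA-treated mice 1, 4 and 5 and 0, 0, 1 and 6 reads in MYO5B-knockout mice, too few for a stable value (1.27, limma's adjusted p = 1, and 0.31 to 2.73 with pseudocounts of 1 and 0.01). Aldh1a3, a retinal dehydrogenase, followed with 1.15. Aldh1a3 was between 0.353 and 0.851 FPKM in LPA-treated and between 0.106 and 0.219 FPKM in MYO5B-knockout mice. Fabp5, which carries fatty acids and retinoic acid, gave 0.95, and Dhrs9 gave 0.92.

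Against control, LPA-treated MYO5B-knockout mice again had 1 of the 10 genes called, Rdh7, which was lower, beside 2.32% of all genes in either direction and 0.776% lower. Of the 10 genes, 7 had log2 fold changes below 0, with a median of -0.48, whereas the median of all genes was 0.41 (0.10 after median-ratio scaling). Lrat and Rdh7 were lower and Isx higher without overlap, and groups did not overlap for 26.9% of all genes, with the LPA-treated group lower in 6.38% of all genes. Without control mouse 2 and MYO5B-knockout mouse 3, 4 of the 10 genes were called (Lrat, Rdh7 and Aldh1a1 lower, Isx higher) beside 8.56% of all genes. On reads, edgeR called Lrat and Rdh7 beside 2.4% of all genes, and DESeq2 called these and Aldh1a1 beside 9.56%. Each of the 3 comparisons shares a group of mice with each of the others, so they are not independent. Of the other 40 retinoid genes, 3 were called, Akr1b8 and Dhrs9 higher and Rdh16f2 lower, with a median of 0.24. Fabp5 stood at 4.82 to 7.74 FPKM against 0.755 to 1.93 FPKM in control mice (log2 fold change 2.06, limma's adjusted p = 0.0654). Pnliprp2, a pancreatic lipase-related protein that cleaves retinyl esters, stood at 53.8 to 185 FPKM against 8.20 to 44.7 FPKM (2.23, limma's adjusted p = 0.141).

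Markers of other cell states moved beside these genes. The summed level of 10 leukocyte markers was 22.2 to 52.2 FPKM in control and 4.16 to 19.6 FPKM in MYO5B-knockout mice. LPA-treated mice had 6.23 to 12.9 FPKM. Among the 9 tested, 2 were higher and 7 lower in MYO5B-knockout mice, and the B-cell gene Cd79a was called lower (limma's adjusted p = 0.0379). Its level in MYO5B-knockout mice rested on 1 to 5 reads per library. The call was lost without control mouse 2 or 5, MYO5B-knockout mouse 5, 6 or 7, or any 1 LPA-treated mouse (0.0600 to 0.144). It was also lost with a pseudocount of 1 (0.0657), without a filter (0.0691) and with only the 2 groups (0.113). Leaving out MYO5B-knockout mouse 3 and LPA-treated mouse 1 lost it as well (0.0629). The 6 proliferation markers summed to 73.7 to 99.4 FPKM in control, 163 to 261 FPKM in MYO5B-knockout and 132 to 191 FPKM in LPA-treated mice, all 6 with values above 0 and none called. The 4 proximal small intestine markers summed to 22.8 to 56.8 FPKM in control and 27.4 to 69.4 FPKM in MYO5B-knockout mice. LPA-treated mice had 32.3 to 91.1 FPKM. In MYO5B-knockout mice 3 of the 4 were higher, while Slc40a1 had a lower mean, 0.904 FPKM against 1.78 FPKM in control. Only Cybrd1, a duodenal ferric reductase, was called (3.31, limma's adjusted p = 0.0310). That call was lost without any 1 control, MYO5B-knockout mouse 5 or 6, or LPA-treated mouse 4 or 5 (0.0526 to 0.126). It was also lost without control mouse 2 and MYO5B-knockout mouse 3 (0.0627) and with a pseudocount of 1 (0.0898). No filter (0.0507) or only the 2 groups (0.0872) lost it as well. The 2 ileal markers summed to 0.954 to 3.40 FPKM in control and 3.77 to 11.2 FPKM in MYO5B-knockout mice, with none called. The 10 stromal and endothelial markers summed to 1.49 to 6.28 FPKM in control, 0.421 to 3.10 FPKM in MYO5B-knockout and 1.45 to 8.42 FPKM in LPA-treated mice, with none of the 8 tested called in any comparison. In LPA-treated mice against control 3 markers were called. Cybrd1 was higher at 5.06 to 18.7 FPKM against 0.119 to 0.377 FPKM (log2 fold change 4.82, limma's adjusted p = 0.00724), a call that held in all 22 other settings. The epithelial keratin gene Krt18 was higher (2.46, limma's adjusted p = 0.0316), but not after median-ratio scaling (0.154), with edgeR (0.176) or DESeq2 (0.0614), without a filter (0.0504), or without control mouse 4 or 5, MYO5B-knockout mouse 7 or any 1 LPA-treated mouse (0.0506 to 0.134). The T-cell gene Cd3g was lower (-3.18, limma's adjusted p = 0.0472), a call lost without any 1 control, MYO5B-knockout mouse 6 or any 1 LPA-treated mouse (0.0514 to 0.190). It was also lost with a pseudocount of 0.01, without a filter, with a replicate block and with only the 2 groups (0.0501 to 0.0665). Without MYO5B-knockout mouse 3 and LPA-treated mouse 1 it was lost (0.106), and without these and control mouse 2 (0.0525). Of the 9 leukocyte markers tested in that comparison, 3 were higher and 6 lower. Among the higher was Cd68, at 1.59 to 2.63 FPKM against 0 to 0.696 FPKM. The part of these markers in the values of the retinoid genes was not tested.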

How the data were processed

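Total RNA came from epithelial cells that were mechanically separated from the jejunum of 10 mice. The submitters' processing notes name STAR 2.5, TopHat, HTSeq 0.6.1 and DESeq2 with GRCm38, and give no annotation. The authors deposited FPKM of 35275 genes, and read counts for the genes they list as raised by LPA. FPKM times gene length gave whole reads (100% of values within 0.02 reads), and 63 of 63 deposited counts equalled them. Columns and files of the authors' own fold changes, p-values and pathway enrichment were not used.

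The 15729 genes averaging 0.1 FPKM or more were compared as log2(FPKM + 0.1), which understates changes of low genes, in 1 limma 3.58.1 model of the 3 groups (R 4.3.3) with trended variance, a two-sided moderated test, Benjamini-Hochberg adjustment over all genes and a threshold of 0.05. The steps were tested on simulated data. Alternatives were pseudocounts of 1 and 0.01, no filter, other scalings, left-out libraries, 2 groups only, a replicate block, edgeR 4.0.16 and DESeq2 1.42.0 on the recovered reads.

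The members and lists were chosen with earlier results of these data known. Other retinoid genes are named where called or among the 5 largest changes of a comparison. A gene of the lists is not reported here. Promoters are shown for members called in MYO5B-knockout mice, and shared 50-base stretches come from GENCODE M21 transcripts. Deviations of same-numbered libraries correlated at -0.36 to 0.30. With so few such pairs, this cannot tell whether mouse numbers pair libraries. Each library is 1 mouse.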

Additional observations from a re-analysis of the deposited data

Results flagged for a closer look

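Retsat in MYO5B-knockout mouse 3 stood at 2.38 FPKM, while the other 3 mice of its group stood between 16.7 and 24.6 FPKM, a gap that passed Dixon's 95% critical value for 4 samples (a gap of 0.832 of the range on the log2 scale). About 1 in 20 such groups passes by chance, and this was the only one of the 10 genes to pass in the group of 4 mice. The same library is one of those with few detected genes, and control mouse 2, the other such library, held 3.47 FPKM beside 49.95 and 61.6 FPKM in the other controls.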

How the results depend on the processing

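The mouse numbers are not stated to mark a shared litter, batch or day, and same-numbered libraries did not deviate together throughout. With the number as a replicate block, limma called 1, 0 and 1 of the 10 genes, as without it, and 302, 0 and 311 of all genes. Against 1 of the 10 genes called in MYO5B-knockout mice, the count was 3 after median-ratio scaling, 2 after quantile normalization, 2 without control mouse 2 and MYO5B-knockout mouse 3, 2 without these and LPA-treated mouse 1, 0 with only the 2 groups, 3 with edgeR and 6 with DESeq2. Leaving out each mouse in turn gave 0 to 2. Of all genes, 316 were called (139 lower), and the count was 188 without a filter, 598 after median-ratio scaling (376 lower), 804 after quantile normalization (438 lower), 778 and 1274 without the 2 and the 3 libraries, 50 with only the 2 groups, 443 with edgeR (264 lower) and 1854 with DESeq2, and 44 to 403 with each mouse left out. Between LPA and vehicle the 10 genes gave 0 calls in all 22 settings, and all genes gave 6 with DESeq2 and 197 without the 3 libraries. For LPA-treated mice against control, 1 of the 10 genes became 0 without a filter, without MYO5B-knockout mouse 3 and LPA-treated mouse 1 and with only the 2 groups, 2 after both scalings and with edgeR, 3 with DESeq2, 4 and 3 without the 2 and the 3 libraries, and 0 to 2 with each mouse left out. Of all genes, 365 (122 lower) became 626 after quantile normalization (326 lower), 490 after median-ratio scaling (269 lower), 1346, 1899, 190 and 1503 without the 2 and the 3 libraries, with only the 2 groups and with DESeq2, and 73 to 702 with each mouse left out.

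Of 770 values of single genes over all settings (the 10 genes in each comparison, and the other retinoid genes where called), 661 kept direction and side of the threshold, 24 newly passed it, 43 no longer did and 42 changed sign. Against control, Rbp2 turned to 0.0032 in MYO5B-knockout mice after quantile normalization, and in LPA-treated mice to -0.069 after median-ratio scaling, -0.070 with DESeq2 and -0.026 with edgeR. Rarb turned to 0.72 in MYO5B-knockout mice without the 2 and without the 3 libraries, and in LPA-treated mice to 0.65 and 0.40. Retsat in LPA-treated mice against control turned to -0.23 (median-ratio), -0.14 (quantile), -1.18 (without the 2 libraries), -0.18 (without the libraries against the labelled sex), -1.502 (without the 3), -0.69 (edgeR) and -0.71 (DESeq2). Between LPA and vehicle, Isx turned to -0.059 and -0.045 after the scalings, -0.18 with edgeR and -0.22 with DESeq2. Without the libraries against the labelled sex, as without the 3, Retsat turned to -0.14, Rara to -0.0069 and Rarb to -0.32, and Rarb was -0.070 without the 2. With each mouse left out, signs also varied between MYO5B-knockout and control mice for Rarb (-1.09 to 0.21), between LPA and vehicle for Rdh7 (-0.022 to 0.71), Aldh1a1 (-0.43 to 0.19), Isx (-0.11 to 0.23), Rara (-0.0091 to 0.24) and Rarb (-0.070 to 0.69), and between LPA-treated and control mice for Retsat (-1.18 to 0.87) and Rarb (-0.65 to 0.65). The cause was not tested. Leaving out 3 libraries together was chosen after seeing the data. Lrat and Rarb, at a few reads in some libraries, are limited by depth.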
